A study of Mus musculus with 16 samples.

Results

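Stk32a, Arid5b, Fam189a2, Pdxk, Reep6, Ipmk, Paqr9, Gpc4 and Itpr3 are 9 mouse genes that were chosen because an earlier analysis of these libraries placed them among the genes whose response to the drug PT-2385 differed most between ovary and kidney. They are 9 of the 19977 genes that could be tested for such a difference, out of 55359 gene models counted. In every one of the 9 the estimated response had opposite signs in the organs: 8 had a positive response in ovary and a negative one in kidney, and Itpr3 had the reverse. They were selected on the interaction of organ and treatment, which is made of their fold changes in both organs, so the values below describe these genes and are no test of that difference.

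RNA was sequenced from whole ovary and whole kidney of wild-type (WT) CBAF1 females aged 21 days, in 4 groups of 4 libraries: ovary with PT-2385, ovary with vehicle, kidney with PT-2385 and kidney with vehicle. PT-2385 is a drug-like inhibitor of the protein HIF-2α: it sits in a pocket of this hypoxia-sensing transcription factor, the product of Epas1, so that ARNT cannot pair with it. It was given intraperitoneally at 7.5 mg/kg at intervals of 12 h for 4 days, and the vehicle groups received 5% DMSO in saline on the same schedule. All 4 groups, vehicle included, also received 5 IU of PMSG, a gonadotrophin that makes follicles grow, and later 5 IU of hCG, which triggers ovulation, and both organs were collected 13 h after hCG. Whether each library stands for its own mouse, or an ovary and a kidney library of the same number come from one mouse, is not stated in the labels, so the spread between replicates may be partly technical. The drug reached the whole animal, and nothing here restricts it to a cell type.

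The 9 genes belong to no single pathway. Inside cells, hormones and growth factors release inositol trisphosphate (IP3), which opens calcium channels in the endoplasmic reticulum: Itpr3 encodes such a channel, the type 3 IP3 receptor, and Ipmk encodes a kinase that converts IP3 into more highly phosphorylated inositols. Paqr9 encodes a member of the PAQR family of membrane progesterone receptors, and progesterone made by the ovary after the LH surge is needed for ovulation. Gpc4 encodes a glypican, a heparan sulfate proteoglycan anchored at the cell surface that binds growth factors. The product of Fam189a2 (also called ENTREP1) is a membrane protein that, in human cells, activates the ubiquitin ligase ITCH. Pdxk encodes pyridoxal kinase, which makes the active form of vitamin B6, a cofactor of many amino acid enzymes. Reep6 encodes a protein of the endoplasmic reticulum of the REEP family, Arid5b a DNA-binding protein that works with the histone demethylase PHF2, and Stk32a a serine/threonine kinase of which little is known.

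The promoters of 4 of the genes are shown because they hold the letters that HIF dimers and the related E-box proteins recognise. The sequences are RefSeq's, on build GRCm38.p6, and run 5′ to 3′ on the strand of the gene over the 250 bases before the start site. Capitals mark ACGTG or GCGTG, the core of a hypoxia response element, on either strand (a reverse-strand match reads CACGT or CACGC). Pdxk (chr10:78464949-78465198, minus strand), Fam189a2 (chr19:24031020-24031269, minus strand) and Itpr3 (chr17:27057054-27057303, plus strand) also hold the E-box CACGTG, which overlaps the first motif. Gpc4 (chrX:52164924-52165173, minus strand) is the gene whose groups separated in both organs.
Pdxk: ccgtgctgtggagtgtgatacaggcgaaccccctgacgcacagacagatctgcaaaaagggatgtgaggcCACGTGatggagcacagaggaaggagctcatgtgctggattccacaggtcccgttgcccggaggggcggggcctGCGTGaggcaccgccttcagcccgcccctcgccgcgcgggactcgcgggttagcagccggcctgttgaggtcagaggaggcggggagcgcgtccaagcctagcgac
Fam189a2: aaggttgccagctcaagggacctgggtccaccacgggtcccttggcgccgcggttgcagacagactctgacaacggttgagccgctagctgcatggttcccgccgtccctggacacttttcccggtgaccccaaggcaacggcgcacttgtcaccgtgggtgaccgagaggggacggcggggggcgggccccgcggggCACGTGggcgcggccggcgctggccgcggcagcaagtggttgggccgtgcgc
Itpr3: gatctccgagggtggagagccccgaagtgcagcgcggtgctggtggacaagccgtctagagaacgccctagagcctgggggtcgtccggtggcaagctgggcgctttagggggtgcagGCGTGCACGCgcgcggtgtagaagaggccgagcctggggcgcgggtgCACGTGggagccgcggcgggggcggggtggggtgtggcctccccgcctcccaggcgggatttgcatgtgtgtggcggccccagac
Gpc4: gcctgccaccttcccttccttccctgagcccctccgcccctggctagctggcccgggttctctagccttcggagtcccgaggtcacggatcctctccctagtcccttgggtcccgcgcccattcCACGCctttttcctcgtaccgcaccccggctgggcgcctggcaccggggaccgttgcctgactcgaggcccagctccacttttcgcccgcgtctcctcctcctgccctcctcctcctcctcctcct
RefSeq promoter windows were matched for 6 of the 9 genes, these 4 and Ipmk and Arid5b, and all 6 held ACGTG or GCGTG, as did 38.6% of 27025 promoters of the same length. CACGTG stood in 3 of the 6 and in 6.05% of promoters. The GC box GGGCGG stood in 5 of the 6, all but Arid5b, and in 32.9% of promoters, and AGGTCA, the hexamer of many nuclear receptors, stood in the windows of Pdxk and Gpc4 and in 13.8% of promoters. The TATA box TATAAA stood in the window of Arid5b and in 13.0% of promoters. CCAAT and TGTTCT, a hexamer of the progesterone and glucocorticoid receptors, were not among the letters of these windows, against 34.5% and 16.2% of promoters. The windows were rich in G and C: GC content was 64.4% for Ipmk, 66.4% for Pdxk, 68.4% for Gpc4, 71.2% for Fam189a2, 72% for Itpr3 and 42% for Arid5b. Among the 7446 promoters with at least 60% GC, a limit set after the windows had been seen, 64.2% held ACGTG or GCGTG and 9.44% held CACGTG.

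Levels are given as counts per 1e6 counts of the library (CPM) after TMM scaling within the organ, a fold change is PT-2385 over vehicle on the log2 scale with the standard error of the fit, and the organ difference is the ovary fold change minus the kidney one. Over all genes, edgeR's quasi-likelihood test called 38 organ differences at a Benjamini-Hochberg adjusted p under 0.05 (0.19% of 19977), 32 higher (0.16%) and 6 lower (0.03%). It called 9 genes in ovary (0.0497% of 18125; 0.00552% higher and 0.0441% lower) and 982 in kidney (5.53% of 17763), of which 657 were lower (3.7%) and 325 higher (1.83%). All 9 genes were among the 38, which is how they were picked and supports nothing. They ranked between 2 and 20 by p. In ovary alone 0 of the 9 were called by edgeR, with 7 at an unadjusted p under 0.05, and DESeq2 called 5. In kidney alone 5 were called, all lower: Arid5b, Pdxk, Ipmk, Paqr9 and Gpc4.

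In the reported edgeR fits the estimates therefore had opposite signs without passing the test in both organs. No gene of the 15816 tested in both organs was called in each with opposite signs in these fits. Under other settings some of the 9 were, among them Paqr9 in a fit of all 16 libraries. Gpc4 was so called with DESeq2, with no filter and with a block for the replicate number. It was also called in both organs without ovary vehicle replicate 3 and kidney PT-2385 replicate 3. Opposite signs alone were common, in 7183 of the 15816 genes (45.4%). Groups did not overlap in ovary for 5 of the 9, Stk32a, Fam189a2, Reep6 and Gpc4 being higher and Itpr3 lower, against 6.95% of all genes in ovary, 3.18% higher and 3.77% lower. Kidney groups did not overlap for the 5 that were called there, against 13.3% of all genes, 5.37% higher and 7.89% lower. Gpc4 alone of the 9 separated in both organs, in opposite directions, which 34 of the 15816 genes did (0.215%), while 144 separated in both organs in the same direction (0.91%). In bulk RNA a smaller number of cells of a type and less RNA per cell cannot be told apart.

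Ipmk, the IP3-converting kinase, differed in kidney and hardly in ovary. Ovary libraries had 41.3, 40.3, 44.5 and 40.5 CPM with PT-2385 (replicates 1 to 4), against 39.2, 38.2, 42.9 and 43.5 CPM with vehicle. The ovary groups overlapped. Kidney libraries had 70.4, 79.1, 72.6 and 65.2 CPM with PT-2385, against 95.6, 106, 98.0 and 96.9 CPM with vehicle, so every vehicle kidney lay above every PT-2385 kidney. Fitted over the 8 libraries of each organ, the log2 fold change was 0.02 ± 0.07 (SE) in ovary and -0.47 ± 0.06 in kidney, an organ difference of 0.51 ± 0.09. Of the summed size of both responses, kidney made up 95.0%. The ovary sign was not stable: the log2 fold change was -0.0078 without ovary vehicle replicate 2 and -0.0016 without ovary PT-2385 replicate 3. The measurements of Ipmk thus gave a lower level in kidney with PT-2385 and no ovary difference beyond its error.

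Itpr3, the IP3-gated calcium channel, ran the other way from the rest. PT-2385 ovaries had 33.8, 33.1, 32.7 and 34.6 CPM and vehicle ovaries 41.7, 45.0, 38.1 and 47.0 CPM. All PT-2385 ovaries were below all vehicle ovaries, and the 4 PT-2385 values lay close together (SD 0.853 CPM, against 3.90 CPM with vehicle). In kidney the values were 26.6, 24.6, 27.2 and 27.1 CPM with PT-2385, against 21.1, 25.2, 21.7 and 24.1 CPM with vehicle, where PT-2385 replicate 2 fell inside the vehicle range. Its log2 fold change was -0.36 ± 0.07 in ovary and 0.20 ± 0.07 in kidney, an organ difference of -0.54 ± 0.10. Of the exon bases of Itpr3, 2.60% are shared with other gene models, among them the antisense gene Itpr3os. Itpr3os had at most 1 count in any library, which is no measure of RNA from the shared bases.

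Paqr9, the membrane progesterone receptor family member, was a low-level gene in ovary and a well-measured one in kidney. Its ovary values were 4.43, 3.97, 2.83 and 2.85 CPM with PT-2385, against 2.01, 3.00, 1.94 and 2.20 CPM with vehicle, and the groups overlapped because vehicle replicate 2 exceeded PT-2385 replicates 3 and 4. The lowest ovary library held 62 read pairs of the gene. Kidneys had 93.7, 103, 101 and 93.0 CPM with PT-2385, against 134, 129, 117 and 117 CPM with vehicle, with no overlap. This gave a log2 fold change of 0.61 ± 0.21 in ovary, the widest error among the 9, and -0.35 ± 0.06 in kidney, an organ difference of 0.96 ± 0.17. Kap, a transcript of kidney proximal tubule, reached 33.9 CPM without TMM scaling in ovary vehicle replicate 1, where the other ovaries had at most 0.806 CPM and kidneys 11310 to 13995 CPM. The ovary log2 fold change of Paqr9 was 0.55 without that library.

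Gpc4, the cell-surface glypican, was the most abundant of the 9 per length in either organ. In ovary it had 503, 462, 529 and 451 CPM with PT-2385, against 341, 272, 404 and 414 CPM with vehicle. In kidney it had 179, 178, 170.4 and 172 CPM with PT-2385, against 232, 226, 209.6 and 196 CPM with vehicle. Groups did not overlap in either organ, PT-2385 being higher in ovary and lower in kidney. The SD was 36.3 CPM in PT-2385 ovaries and 65.8 CPM in vehicle ovaries, and 4.07 CPM in PT-2385 kidneys and 16.4 CPM in vehicle kidneys. On the log2 scale its fold change was 0.44 ± 0.12 in ovary and -0.30 ± 0.05 in kidney, an organ difference of 0.77 ± 0.14.

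Fam189a2, the membrane activator of ITCH, had 38.8, 36.3, 41.7 and 37.3 CPM in PT-2385 ovaries, against 23.7, 24.6, 28.7 and 30.2 CPM in vehicle ovaries. The lowest PT-2385 ovary stood above the highest vehicle ovary. Its kidney values were lower throughout, at 7.26, 8.01, 7.40 and 7.89 CPM with PT-2385, against 8.76, 8.79, 7.83 and 9.41 CPM with vehicle, and vehicle replicate 3 lay within the PT-2385 range. Its log2 fold change was 0.52 ± 0.09 in ovary and -0.19 ± 0.09 in kidney, an organ difference of 0.74 ± 0.13. Ovary made up 72.9% of the summed size of both responses.

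Pdxk, the vitamin B6 kinase, showed the pattern of Ipmk. Ovary libraries had 8.97, 9.37, 9.16 and 10.4 CPM with PT-2385, against 9.15, 8.15, 9.60 and 8.85 CPM with vehicle, and the groups overlapped. Kidney libraries had 55.3, 63.5, 59.1 and 62.9 CPM with PT-2385, against 95.0, 86.6, 80.5 and 81.4 CPM with vehicle, with a wide gap between the groups. The fitted log2 fold change was 0.09 ± 0.10 in ovary, within its own standard error of 0, and -0.52 ± 0.06 in kidney, an organ difference of 0.63 ± 0.11. This was the largest kidney fall among the 9. Of its exon bases, 41.1% are shared with 4921516A02Rik on the opposite strand, and counting did not use strand. That gene had at most 1 count in any library, which is no measure of RNA from the shared bases. The effect of this overlap on the counts of Pdxk was not tested.

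Reep6, of the endoplasmic reticulum, had 6.97, 6.36, 6.66 and 6.21 CPM in PT-2385 ovaries, against 4.53, 4.76, 5.27 and 4.51 CPM in vehicle ovaries, without overlap. Kidney levels were far higher, at 97.8, 89.6, 85.6 and 87.8 CPM with PT-2385, against 107, 100.5, 111 and 88.5 CPM with vehicle. There the groups overlapped, since PT-2385 replicates 1 and 2 exceeded vehicle replicate 4. Its log2 fold change was 0.45 ± 0.11 in ovary and -0.17 ± 0.07 in kidney, an organ difference of 0.64 ± 0.11. Without ovary vehicle replicate 1, the library with Kap, the ovary log2 fold change was 0.43.

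Arid5b, the partner of PHF2, had 76.5, 85.2, 84.8 and 76.2 CPM in PT-2385 ovaries, against 73.6, 66.0, 77.2 and 72.0 CPM in vehicle ovaries. The groups overlapped through vehicle replicate 3. Its kidneys had 49.5, 51.7, 48.2 and 49.5 CPM with PT-2385, against 69.8, 67.7, 58.8 and 64.0 CPM with vehicle, all PT-2385 values being lower. The resulting log2 fold change was 0.16 ± 0.07 in ovary and -0.39 ± 0.06 in kidney, an organ difference of 0.57 ± 0.09. Kidney made up 71.0% of the summed size of both.

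Stk32a, the little-studied kinase, had the largest organ difference of the 9. PT-2385 ovaries had 6.49, 5.44, 5.49 and 4.17 CPM, against 2.72, 2.77, 3.09 and 2.85 CPM in vehicle ovaries. Each PT-2385 ovary was above each vehicle ovary, and the mean was 1.89 times as high. Kidneys had 6.49, 7.30, 6.46 and 5.61 CPM with PT-2385, against 8.07, 8.27, 8.22 and 7.15 CPM with vehicle, where PT-2385 replicate 2 exceeded vehicle replicate 4. Expressed as log2, the fold change was 0.91 ± 0.15 in ovary and -0.31 ± 0.10 in kidney, an organ difference of 1.22 ± 0.18.

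**Figure D1:**
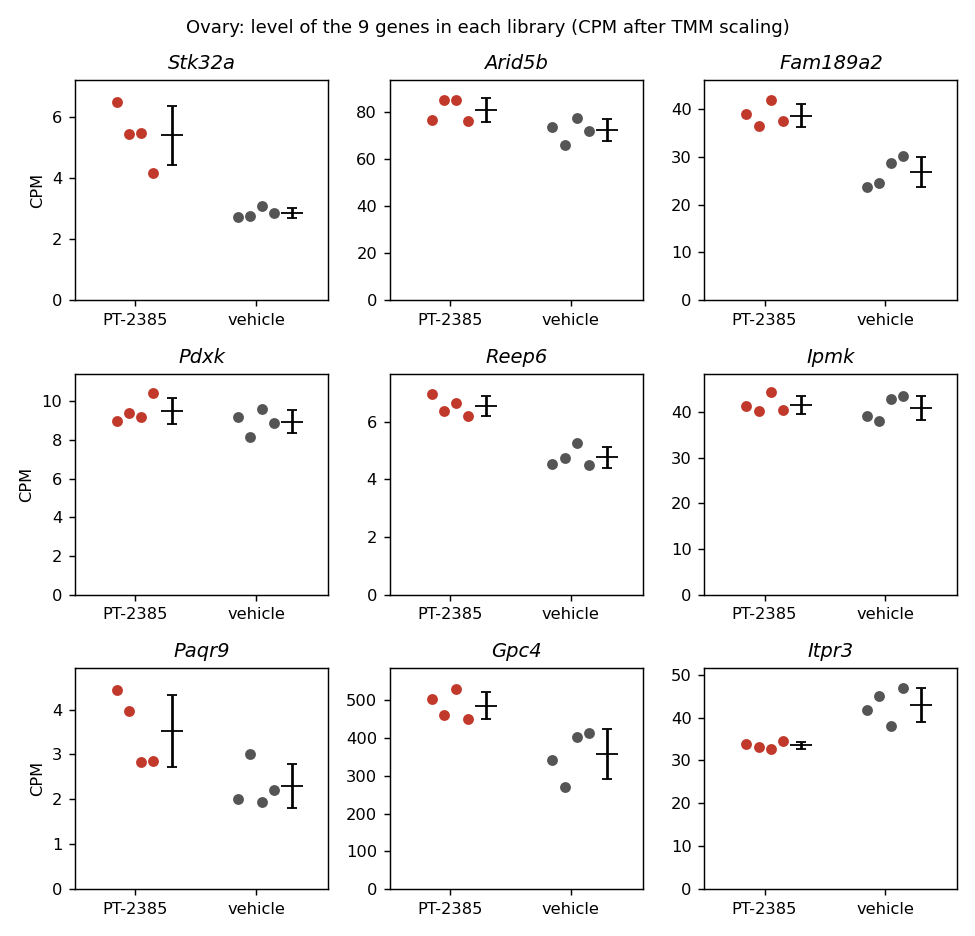
CPM after TMM scaling of each gene in the 8 ovary libraries, PT-2385 in red at the left and vehicle in grey at the right (points are libraries, bars mean ± SD, n = 4 each). Stk32a, Fam189a2, Reep6, Gpc4 and Itpr3 have separate groups, and those of Arid5b, Pdxk, Ipmk and Paqr9 overlap.

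**Figure D2:**
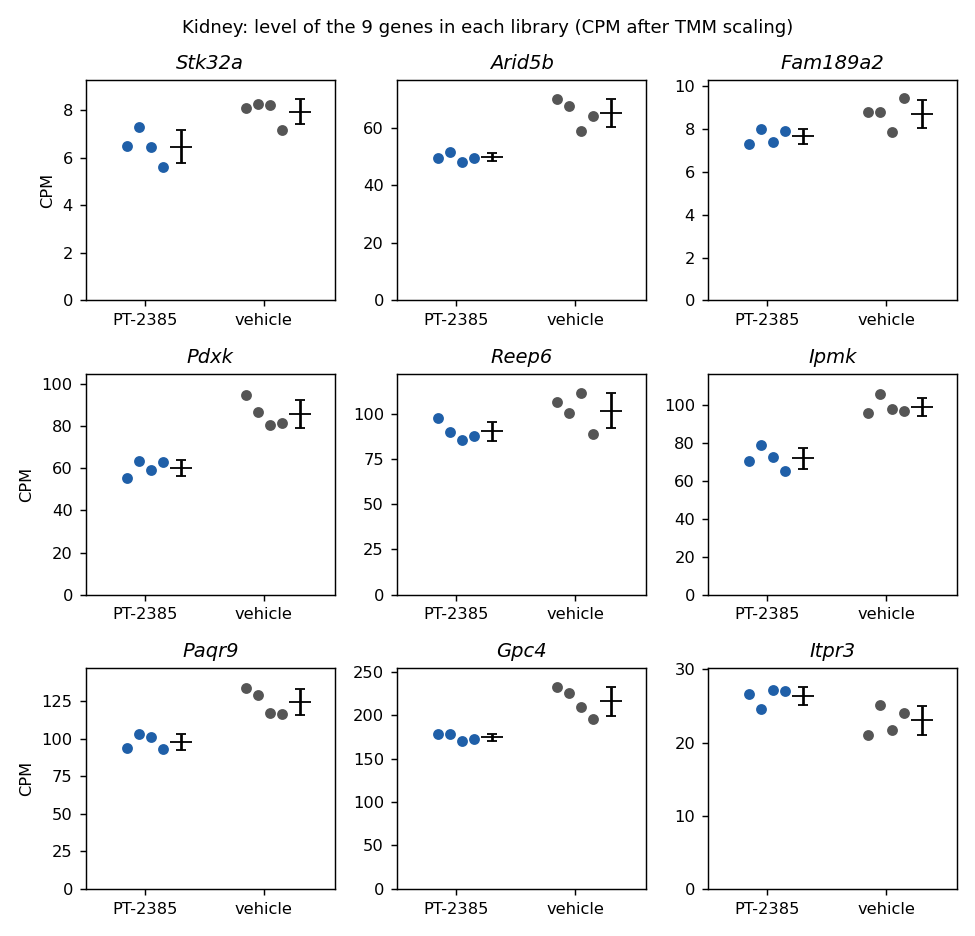
CPM after TMM scaling of each gene in the 8 kidney libraries, PT-2385 in blue at the left and vehicle in grey at the right (points are libraries, bars mean ± SD, n = 4 each). Arid5b, Pdxk, Ipmk, Paqr9 and Gpc4 are lower in every PT-2385 kidney than in any vehicle kidney.

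Side by side, the 9 fall along a range from responses mostly in ovary to responses mostly in kidney. The ovary estimate was the larger in size for 6 genes, Stk32a, Fam189a2, Reep6, Itpr3, Paqr9 and Gpc4. The kidney estimate was the larger for 3 genes, Arid5b, Pdxk and Ipmk, and the ovary estimates of Pdxk and Ipmk lay within their standard errors of 0. The plot of all genes places the 9 in the quadrants of opposite sign, where other genes of similar size also lie. The cloud of all genes was centred near 0, with a median log2 fold change of -0.0030 in ovary and 0.0066 in kidney. The median size of a fold change, of either sign, was 0.12 in each organ.

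**Figure D3:**
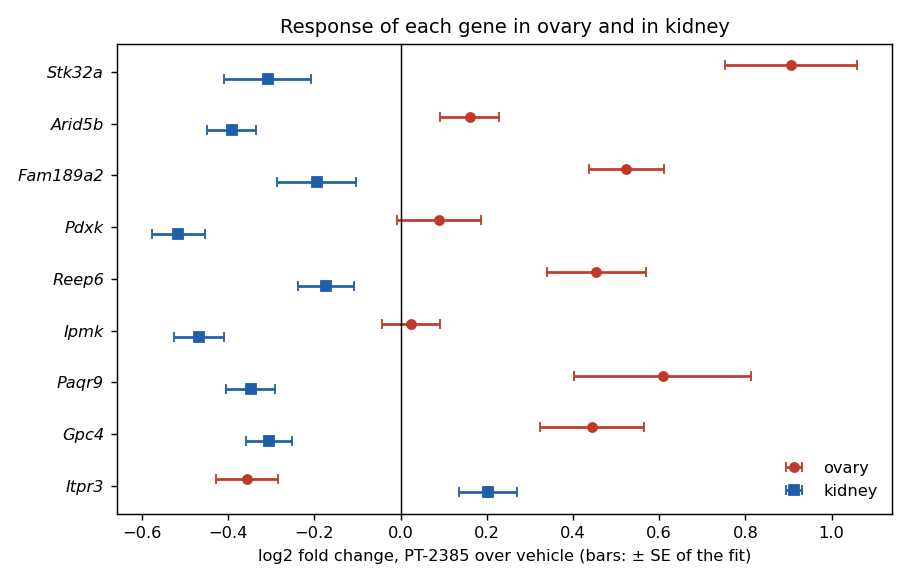
Log2 fold change of each gene, PT-2385 over vehicle, in ovary (red circles) and kidney (blue squares), with bars of ± SE of the edgeR fit. The 2 estimates lie on opposite sides of 0 for every gene, and the ovary bars of Pdxk and Ipmk reach across 0.

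**Figure D4:**
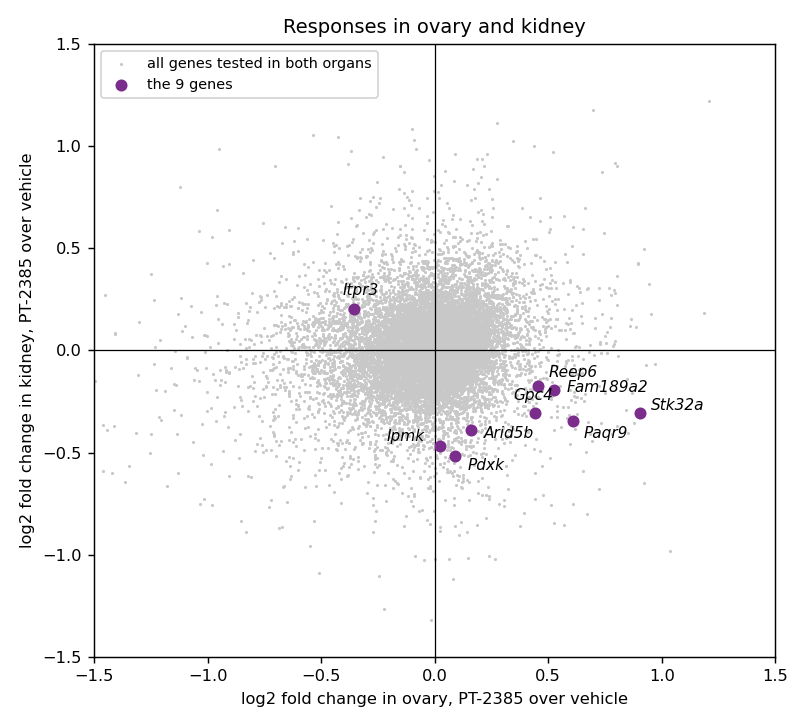
Log2 fold change in ovary (x axis) against kidney (y axis) for genes tested in both organs (grey, 15797 of 15816 within the axes) with the 9 genes in purple. The 9 lie in the quadrants of opposite sign, 8 at the lower right and Itpr3 at the upper left, and grey points of similar size lie in all 4 quadrants.

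Ranked by level per kilobase of exon in vehicle libraries, Gpc4 was highest in ovary at 135 ± 24.8 CPM per kb (SD, n = 4), followed by Fam189a2 at 10.5 ± 1.24, Arid5b at 9.35 ± 0.603 and Ipmk at 6.73 ± 0.438. Below these came Itpr3 at 4.78 ± 0.433, Reep6 at 2.16 ± 0.160, Pdxk at 1.74 ± 0.119, Stk32a at 0.562 ± 0.032 and Paqr9 at 0.273 ± 0.058 CPM per kb. Of neighbours in this order, only Fam189a2 and Arid5b had overlapping ranges. In kidney with vehicle the order was Gpc4 at 81.4 ± 6.19 CPM per kb, Reep6 at 46.1 ± 4.45, Pdxk at 16.8 ± 1.30, Ipmk at 16.3 ± 0.753, Paqr9 at 14.9 ± 1.04, Arid5b at 8.43 ± 0.623, Fam189a2 at 3.41 ± 0.256, Itpr3 at 2.56 ± 0.214 and Stk32a at 1.56 ± 0.103. Pdxk, Ipmk and Paqr9 overlapped there in their ranges. The level of Pdxk was divided by all its exon bases, including the 41.1% shared with 4921516A02Rik, so its place in both orders is uncertain. RNA was isolated by different methods from the organs, so levels were not tested between them.

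The calls of the 9 depended on single libraries, while the signs of their organ differences did not. With each library left out in turn, the organ difference stayed between 1.13 and 1.34 for Stk32a, between 0.44 and 0.55 for Ipmk and between -0.59 and -0.49 for Itpr3, and it kept its sign in all 9 genes and all 16 such fits. The number of the 9 called was 0 without ovary PT-2385 replicate 3. It was 1 without kidney vehicle replicate 2, kidney PT-2385 replicate 3 or kidney PT-2385 replicate 4, and 2 without ovary vehicle replicate 1, ovary PT-2385 replicate 2 or kidney PT-2385 replicate 1. It was 3 without ovary PT-2385 replicate 1, 4 without kidney vehicle replicate 3, 6 without kidney vehicle replicate 1, 7 without ovary vehicle replicate 4 and 8 without kidney vehicle replicate 4. All 9 were called without ovary vehicle replicate 2 or 3, ovary PT-2385 replicate 4 or kidney PT-2385 replicate 2. The 5 kidney calls of Arid5b, Pdxk, Ipmk, Paqr9 and Gpc4 stood in each of the 8 kidney fits with a library left out.

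Libraries held between 12.7 and 43.3 M read pairs assigned to genes (1 M is 1e6), the extremes both being PT-2385 kidneys. Epas1, Hif1a and Arnt, which encode the drug's target, its paralogue and their partner, had overlapping groups in both organs; PT-2385 acts on the protein, so RNA levels are no check of it. Of the 6 granulosa cell markers Foxl2, Fshr and Cyp19a1 were at 0 in all kidneys, and of the 6 oocyte markers Zp3 and Oosp1. The others were not all absent. Without TMM scaling the granulosa list summed to 5.28 to 7.34 CPM in kidneys, against 1230 to 1989 CPM in ovaries. The oocyte list summed to 1.70 to 3.07 CPM in kidneys, against 309 to 637 CPM in ovaries. Mitochondrial genes took 11.74 to 12.58% of counts in PT-2385 kidneys, against 10.06 to 11.67% in vehicle kidneys, without overlap. The 5 kidney falls moved together with this share, and its part in them was not tested. Ovary vehicle replicate 3 stood apart with 629 CPM of the nuclear RNA Malat1, against 1046 to 1399 CPM in PT-2385 ovaries and 1410 to 1956 CPM in the other vehicle ovaries. Without it the ovary log2 fold change was 0.94 for Stk32a, 0.56 for Fam189a2, 0.51 for Reep6, 0.51 for Gpc4 and -0.41 for Itpr3, all then called by edgeR's test, with 1090 genes called in all.

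Summed levels of marker lists for 16 cell types were set beside these responses, without TMM scaling, and their groups overlapped except for the collecting duct list in ovary and the podocyte and macrophage lists in kidney. In ovary, the 5 collecting duct markers together came to 31.9 to 33.7 CPM with PT-2385, against 18.1 to 24.5 CPM with vehicle, without overlap; Aqp2, the water channel of that duct, was the only one tested and had a log2 fold change of 0.65 ± 0.11, not called. The 10 proximal tubule markers in ovary came to 38.3 to 48.2 CPM with PT-2385, against 44.5 to 113 CPM with vehicle, overlapping. The 113 CPM was that of ovary vehicle replicate 1, the library with Kap, and the other vehicle ovaries had 44.5 to 50.4 CPM. Umod, a thick limb marker, was at 4.11 CPM in that library and at most 0.125 CPM in the other ovaries. In kidney, the 4 podocyte markers came to 680 to 794 CPM with PT-2385, against 556 to 677 CPM with vehicle, and the 5 macrophage markers to 82.2 to 94.4 CPM, against 95.3 to 106 CPM, neither overlapping. By edgeR's test in kidney, 1 of the 4 podocyte, 1 of the 5 thick limb and distal tubule and 1 of the 4 smooth muscle markers were higher, and 1 of the 5 macrophage and 2 of the 10 proximal tubule markers lower. The 10 proximal tubule markers came to 20804 to 22987 CPM in PT-2385 kidneys, against 22191 to 24228 CPM in vehicle kidneys, overlapping. The part of these cell types in the 9 responses was not tested.

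No relative of the 9 passed the test of the organ difference. Of 42 family members, 41 could be tested and edgeR called 0 organ differences at an adjusted p under 0.05, with 12 at an unadjusted p under 0.05 (29.3%, against 12.0% of all genes); DESeq2 called 4, Gpc1, Itpr1, Plpbp and Paqr5, and limma-voom 0. Their median organ difference was -0.02, against -0.0061 over all genes tested on the log2 scale. In ovary 0 of 41 were called by edgeR, with 9 at an unadjusted p under 0.05 (21.95%, against 13.2% of all genes). In kidney 1 of 40 was called, Itpr1 (2.5%, against 5.53% of all genes), a share below that of all genes.

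Itpr1 encodes the type 1 IP3 receptor, and it fell in kidney while Itpr3 had a positive estimate there. It averaged 328 ± 23.1 CPM in PT-2385 kidneys and 417 ± 44.5 CPM in vehicle kidneys (SD, n = 4 each), a log2 fold change of -0.35 ± 0.07 (adjusted p = 0.0144, edgeR). The call was lost without kidney vehicle replicate 2 or kidney PT-2385 replicate 3, with the adjusted p at most 0.0602. Its organ difference was 0.47 ± 0.11, of the sign opposite to that of Itpr3, and was not called (adjusted p = 0.0725, edgeR). Itpr2, the type 2 receptor, had an organ difference of -0.51 ± 0.18, with 40.2 ± 6.43 CPM in PT-2385 ovaries and 57.4 ± 13.3 CPM in vehicle ovaries, and was not called in any comparison.

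Among the other families, Gpc1, a glypican like Gpc4, had the smallest p for the organ difference, 0.43 ± 0.10 (adjusted p = 0.0695, edgeR). Its estimates ran as those of Gpc4, at 0.21 ± 0.07 in ovary and -0.20 ± 0.06 in kidney. Of the enzymes and carriers of vitamin B6 next to Pdxk, Plpbp, which binds pyridoxal phosphate, had 0.31 ± 0.08. Among the PAQR genes Paqr5, also a membrane progesterone receptor, had -0.69 ± 0.22, opposite in sign to Paqr9. Of the 10 inositol phosphate kinases, 3 had a positive organ difference, the sign of Ipmk, among them Itpkc, an IP3 3-kinase, at 0.53 ± 0.19 and Itpk1 at 0.32 ± 0.12. Itpka, also an IP3 3-kinase, had -0.68 ± 0.30. Arid5a, the paralogue of Arid5b, had 0.13 ± 0.22, Stk32b -0.04 ± 0.27, Stk32c 0.24 ± 0.27 and Fam189b 0.01 ± 0.11. The REEP genes 1 to 5 lay between -0.03 and 0.33. None of these passed the edgeR test.

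**Figure D5:**
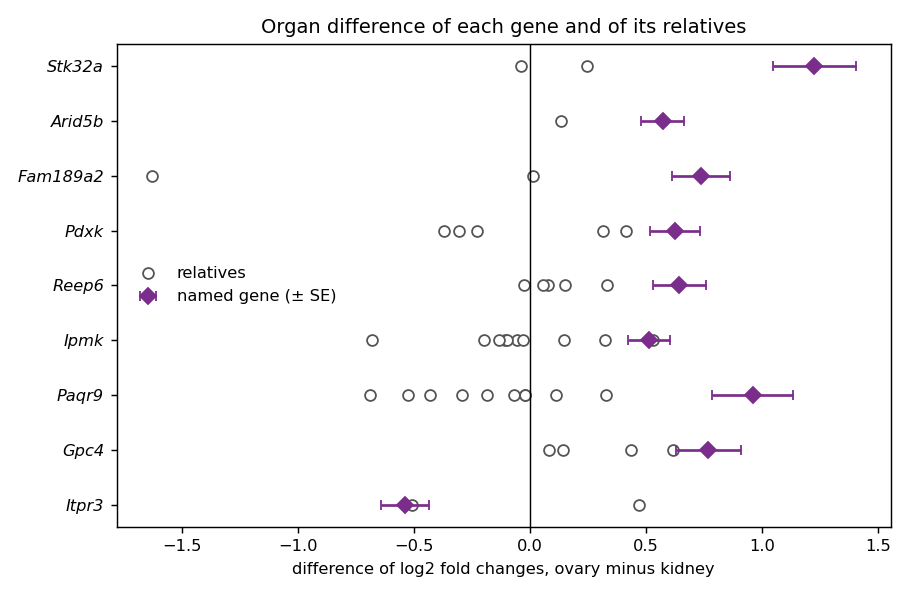
Organ difference on the log2 scale (ovary minus kidney fold change) of each gene (purple diamonds, ± SE) and of the tested members of its family (open circles). The relatives scatter around 0, 41 in all. The most negative, Fam189a1, was under 1 CPM in ovary and too low in kidney to be tested there.

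Genes of the surrounding pathways, of the glucocorticoid response and of the circadian clock were counted from lists of 181 genes. The lists were written with earlier results of these data known, so their counts are a description. Of the 181 genes, 173 were tested for the organ difference. Called were 2 (1.16%), Hs6st1 higher and Sgk1 lower, against 0.19% of all genes, with 31 at an unadjusted p under 0.05 (17.9%, against 12.0% of all genes). Hs6st1 encodes a sulfotransferase that modifies heparan sulfate, the chains that Gpc4 carries. It averaged 271 ± 22.9 CPM in PT-2385 ovaries and 199 ± 29.0 CPM in vehicle ovaries, with 173 ± 9.39 CPM in PT-2385 kidneys and 189 ± 4.40 CPM in vehicle kidneys (SD, n = 4 each), an organ difference of 0.59 ± 0.12 (adjusted p = 0.0456, edgeR). Sgk1, a kinase induced by corticosteroids, averaged 398 ± 51.1 CPM in PT-2385 ovaries and 489 ± 58.4 CPM in vehicle ovaries. In kidney it averaged 149 ± 10.2 CPM with PT-2385 and 108 ± 11.9 CPM with vehicle, and its organ difference was -0.74 ± 0.14 (adjusted p = 0.0342, edgeR). With single libraries left out, Hs6st1 was called in 4 of 16 fits and Sgk1 in 6 of 16. The adjusted p reached 0.173 for Hs6st1 and 0.114 for Sgk1.

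In kidney 17 of 171 pathway genes were called (9.94%, against 5.53% of all genes), 5 higher and 12 lower, and in ovary 0 of 168, with 29 at an unadjusted p under 0.05 (17.3%, against 13.2% of all genes). The enzymes that use pyridoxal phosphate, the cofactor Pdxk makes, had 5 of 31 lower and 0 higher, against 3.7% of all genes lower, and a median log2 fold change of -0.06. These were Cth and Cbs, both of transsulfuration, Kynu of tryptophan breakdown, Abat of GABA breakdown and Etnppl of phosphoethanolamine breakdown. When single kidney libraries were left out, Cth, Kynu and Abat were called in all 8 fits, Cbs in 5 and Etnppl in 1. Abat averaged 298 ± 5.61 CPM in PT-2385 kidneys and 365 ± 20.3 CPM in vehicle kidneys, a log2 fold change of -0.29 ± 0.05 (adjusted p = 0.00486, edgeR). Cth averaged 155 ± 6.81 CPM with PT-2385 and 191 ± 9.47 CPM with vehicle, a log2 fold change of -0.30 ± 0.05 (adjusted p = 0.00486, edgeR). In the same kidneys Pdxk had 60.2 ± 3.81 CPM with PT-2385 and 85.9 ± 6.67 CPM with vehicle. In ovary the log2 fold change was -0.03 for Cth, -0.0025 for Cbs and -0.03 for Abat, and Kynu and Etnppl were too low to be tested.

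In each of the remaining lists 2 genes at most were called in kidney, against 5.53% of all genes (1.83% higher and 3.7% lower), so nothing is read from a single list. Of 19 genes of IP3 formation and breakdown, Isyna1, which makes inositol, was higher at 0.28 ± 0.06 and Plcb1, a phospholipase that releases IP3, lower at -0.19 ± 0.05. Among 18 genes of calcium stores Ahcyl2 was lower at -0.25 ± 0.04, with 258 ± 6.63 CPM in PT-2385 kidneys and 307 ± 4.67 CPM in vehicle kidneys. Of 25 heparan sulfate genes Extl2, of chain synthesis, was lower at -0.35 ± 0.06, and Ndst1, which sulfates the chains, at -0.28 ± 0.08. Of 16 genes around ITCH and the receptor CXCR4, Wwp1, a ligase related to ITCH, was lower at -0.27 ± 0.07 and Ackr3, a scavenging receptor of the CXCR4 ligand, higher at 0.22 ± 0.06. Of 13 ARID and PHF2 partner genes Arid1b was lower at -0.18 ± 0.04.

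Further lists gave Sgk1 and Tsc22d3 higher of 15 glucocorticoid-responsive genes, at 0.46 ± 0.07 and 0.39 ± 0.08, and Per2 higher (0.60 ± 0.12) and Npas2 lower (-0.35 ± 0.07) of 18 clock genes. No gene was called of the 4 in the progesterone receptor list (Pgr, Pgrmc1, Pgrmc2 and Nenf) or of 13 shapers of the endoplasmic reticulum. With each kidney library left out in turn, 6 of the 17 calls stood in all 8 fits, those of Abat, Cth, Kynu, Ahcyl2, Extl2 and Sgk1. The other 11 were lost without kidney PT-2385 replicate 3. Of these, all but Cbs and Tsc22d3 were lost without kidney vehicle replicate 2, and all but Npas2 and Per2 without kidney PT-2385 replicate 4. The number of all genes called in kidney was 269 without vehicle replicate 2, 531 without PT-2385 replicate 1, 240 without PT-2385 replicate 3 and 287 without PT-2385 replicate 4.

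Along the genome, 4 of the 9 lie on mouse chromosome 10, a property the choice did not use. On GRCm39 coordinates from the count files Arid5b is at chr10:67928350-68114570, Ipmk at chr10:71183593-71221715, Pdxk at chr10:78272578-78300809 and Reep6 at chr10:80165787-80172275. Of the 38 called organ differences 8 were on chromosome 10, or 0.837% of its 956 tested genes, against 0.19% of all genes. Within the 12.2 Mb from Arid5b to Reep6, 157 genes were tested and 5 were called, these 4 and Slc19a1, a folate carrier. Without these 4 of the 9, the median organ difference over the other 153 was 0.0011 on the log2 scale and 77 of them were positive. In kidney 10 of those 142 that were tested there were lower (7.04%, against 3.7% of all genes) and 2 higher (1.41%, against 1.83%), and in ovary 0 of the 137 tested, these 4 included, were called by edgeR. The stretch was drawn around the genes after their positions were known, so these counts are a description. The other 5 genes lie apart, Fam189a2 at chr19:23950114-24008383, Paqr9 at chr9:95441710-95450076, Gpc4 at chrX:51141898-51254129, Itpr3 at chr17:27276278-27341197 and Stk32a at chr18:43340648-43451747.

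Among themselves the 9 moved together unevenly once the groups were set apart. Over the 16 libraries, with each group centred on its own mean, the 36 pairs had a median Pearson r of 0.116, between -0.553 and 0.644, and 22 were positive. The highest were those of Gpc4 with Ipmk (0.644), Arid5b (0.618) and Fam189a2 (0.616), and the lowest was that of Reep6 with Itpr3 (-0.553). Centred only on the organ, which keeps the treatment difference in, the likest genes over 16 libraries among 12282 were Reep6 for Stk32a (r = 0.916), Stk32a for Paqr9 (0.821), Hs6st1 for Fam189a2 (0.924), Glg1 for Arid5b (0.946), Arid1b for Pdxk (0.947), Erbb3 for Ipmk (0.958), Ptk2b for Gpc4 (0.966) and Thsd1 for Itpr3 (0.892). For Reep6 the likest after Stk32a was Pcmt1 (0.874). The treatment difference enters these values, and all come from the same 16 libraries; Spearman's measure shared 7 of the first 2 choices for each of the 9.

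Several genes outside the 9 had organ differences of similar rank. Por, the electron donor of cytochrome P450 enzymes, had 214 ± 12.2 CPM in PT-2385 ovaries and 183 ± 15.2 CPM in vehicle ovaries, and 236 ± 4.23 CPM in PT-2385 kidneys and 303 ± 24.2 CPM in vehicle kidneys. Cmpk2, an interferon-induced kinase, had a negative estimate in both organs, at -1.05 ± 0.15 in ovary and -0.08 ± 0.08 in kidney, so a called organ difference did not need opposite signs. Of the 38 called genes 36 had opposite signs. Next in rank after Itpr3 stood Trim34a, with an organ difference of -1.02 ± 0.20 and the same sign in both organs.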

How the data were processed

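Whole-organ polyA RNA was sequenced in 16 libraries, 4 in each of 4 groups. The deposited values are raw counts of read pairs per gene; per the file headers, featureCounts 2.0.6 counted them over GENCODE vM27 basic gene models. Per the submitters' processing notes, FastQC served for read quality and STAR for alignment, on GRCm39; the versions are not given in the sources used here. The recorded command sets no strand option, although the kit marks strand per the labels' protocols. Per the labels, a column kit was used for ovary RNA and Trizol for kidney RNA, so levels were not tested between organs.

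Symbols came from GENCODE M21 by gene identifier (52083 of 55359, 94.1%). In R 4.3.3, edgeR 4.0.16 (with limma 3.58.1) fitted each organ alone and, for the organ difference, all 16 libraries, by its robust quasi-likelihood test on TMM-scaled counts that passed filterByExpr (count 10, total 15). P-values were adjusted by Benjamini-Hochberg over all genes tested and called under 0.05. Total counts of 12.7 to 43.3 M per library set the precision, and standard errors cover the spread between these libraries only. The 9 genes, the lists of relatives, pathways and markers, and the rule for other named genes were chosen with earlier results of these data known. That rule took 2 genes for each of the 9 by likeness (Pearson r, at least 1 CPM in both organs), up to 10 genes that rank above the last of the 9, and, from each family list, the paralogues and up to 3 genes with the smallest p. Called pathway genes and Trim34a were named after their values were seen. Some genes that the rule takes are not reported here. CPM were computed here. Promoter windows are RefSeq's on GRCm38.p6.

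As alternatives, scaling was changed to median ratios or upper quartiles, the test to DESeq2 1.42.0 or limma-voom, and the filter to none or to 1 CPM in 4 libraries; other fits held a block for the replicate number, took all 16 libraries for each organ, or left libraries out. Leaving libraries out for the list genes was chosen after seeing the data. The tests were tested on simulated data. Figures used Python 3.11.15 and matplotlib 3.10.9. All 16 count columns were used, 1 per file.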

Additional observations from a re-analysis of the deposited data

Results flagged for a closer look

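A difference between the organs' responses, by the test of the difference itself, marks each of the following. In the 9 genes the organ difference (ovary minus kidney log2 fold change) was 1.22 for Stk32a, 0.57 for Arid5b, 0.74 for Fam189a2, 0.63 for Pdxk, 0.64 for Reep6, 0.51 for Ipmk, 0.96 for Paqr9, 0.77 for Gpc4 and -0.54 for Itpr3. These genes were chosen for it, so the values are a description.

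Among named genes outside the 9 it was 0.60 for Por, 0.63 for Arhgap11a, 0.68 for Gramd1b, 0.65 for Enpp3, 0.44 for Slc11a2, 0.56 for Ypel2 and 0.59 for Hs6st1. It was -0.95 for Cmpk2 and -0.74 for Sgk1. In none of the 36 groups of 4 libraries of the 9 genes did a single library stand apart from the others by Dixon's 95% limit.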

How the results depend on the processing

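Of 531 values of the 9 genes under another setting, 416 kept direction and side of the threshold, 79 lost the call, 34 gained it and 2 changed sign, both Ipmk in ovary (-0.0078 without ovary vehicle replicate 2 and -0.0016 without ovary PT-2385 replicate 3; the highest such value was 0.055, without ovary vehicle replicate 4). Called organ differences, 38 in the reported fit, numbered 20 with median-ratio scaling, 301 with DESeq2, 12 with limma-voom, 167 with no filter, 378 without both libraries whose file names deviate (ovary vehicle replicate 3 and kidney PT-2385 replicate 3) and 0 to 813 with 1 library left out. Of the 9, limma-voom called 4, and 0 to 9 were called with 1 library left out. Ovary calls, 9 in the reported fit, numbered 324 with DESeq2, 4 with limma-voom, 330 with no filter, 1090 without both libraries, 325 in the fit of all 16 libraries and 0 to 1090 with 1 left out. Of the 9 genes, ovary calls numbered 5 with DESeq2, 4 with no filter, 5 without both libraries, 6 in the fit of all 16 libraries and 0 to 5 with 1 left out. Kidney calls, 982 in the reported fit, numbered 1761 with no filter, 240 without both libraries, 286 in the fit of all 16 libraries and 240 to 1370 with 1 left out; the fit of all 16 libraries lost Gpc4 among the 9. Of the relatives, DESeq2 called 4 and the fit with no filter 2. Of the pathway genes, 1 was called with median-ratio scaling, 6 with DESeq2, 1 with limma-voom and 5 with no filter. The causes were not tested.

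Replicate numbers were not taken as pairs: same-numbered libraries correlated between -0.114 and 0.204, over 0.1 in 2 of 16 pairs. Between vehicle ovaries and vehicle kidneys all 4 libraries correlated best with their own number (0.035 to 0.058). Between PT-2385 ovaries and PT-2385 kidneys, replicates 2 and 3 did not (0.00065 and -0.0097). The values over 0.1 (0.165 and 0.204) were between PT-2385 and vehicle ovaries, so these correlations do not settle the pairing. Whether an ovary and a kidney library of the same number share a mouse is not stated. The replicate block gave 52 organ differences with all 9 genes among them, 395 ovary calls with 4 of the 9, and 1274 kidney calls with 5 of the 9. A replicate block of treatment and number together gave 20 organ differences with 7 of the 9. Counts of 62 to 103 read pairs a library limit Paqr9 in ovary.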
